A study of Mus musculus with 33 samples.

Results

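The smooth muscle contractile genes described here are 10 genes chosen by name: Acta2, Actg2, Mylk, Myh11, Lmod1, Tagln, Cnn1, Des, Csrp1 and Smtn. All 10 were found by gene symbol, among 16593 genes named on the larger of the 2 mouse bead array platforms, and they had 16 of its 25697 probes and 14 of the 24613 probes on the other. RNA was measured in 33 arrays, 11 groups of 3. The groups were R1 and V6.5, both embryonic stem (ES) cell lines of the mouse; mouse embryonic fibroblasts (MEF), untreated or given RepSox for 1 week; the OKMS6 line at 10, 24 and 48 h, without RepSox and with it; and a line of induced pluripotent stem (iPS) cells. RepSox is an inhibitor of the TGF-beta type I receptor kinase. OKMS6 is 1 partially reprogrammed line that came from MEF transduced with viruses, for which the labels name viral Sox2 in treated and untreated cells alike, and the iPS cells were derived with RepSox in the place of viral Sox2. The labels give no time for untreated MEF. All cells grew on gelatin, some of them on irradiated MEF feeder cells, in ES cell medium with either serum or a serum replacement, and the labels do not say which cultures had which. Of 15 fibroblast markers, 14 were detected in MEF and Postn was not.

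Smooth muscle cells shorten when myosin filaments pull on actin filaments. Calcium starts this through calmodulin and myosin light chain kinase, the product of Mylk, which phosphorylates the light chain of the smooth muscle myosin whose heavy chain is Myh11. Acta2 and Actg2 encode the actins of vascular and enteric smooth muscle, and Lmod1, Tagln, Cnn1 and Smtn encode proteins that start, bind or decorate those filaments. Most of these genes are known targets of serum response factor and its myocardin-type partners. TGF-beta is known to raise several of them in fibroblasts, where Acta2 is the usual sign of a contractile myofibroblast. Des and Csrp1 are less particular to smooth muscle: desmin is the intermediate filament of all muscle types, and Csrp1 encodes a LIM domain protein that is also made by many cells without contractile filaments.

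Values are log2 normalised intensities, and a probe was called detected on an array at a detection p under 0.05. Background lay near the lowest detected signals, 4.61 to 4.92 on arrays other than V6.5 replicates 1 and 3. Those 2 arrays were dim, with 31.4% and 28.7% of probes detected against 43.8% to 52.9% in the other groups. They share the estimate of spread in every test, so the count of contractile genes without them is given wherever it differs. Counts in the further gene lists below were not made again without these arrays. Mean scanner signal was 66.6 and 79.5 on these V6.5 arrays and 94.9 to 113 on MEF arrays, treated ones included. It was 147 to 327 on OKMS6 arrays and 374 to 429 on R1 arrays. Array brightness and cell type therefore cannot be told apart where MEF are compared with R1 or OKMS6 cells. At 24 h treated OKMS6 arrays (147 to 201) were all dimmer than untreated ones (217 to 238), so brightness and RepSox cannot be told apart there. Arrays of each group other than V6.5 correlated at 0.979 to 0.997. In a second deposited table of the same arrays, 2 columns appear exchanged against the scanner values: those of untreated and treated OKMS6 cells at 48 h that carry the number 3. Counts that use 48 h arrays, and the member values that changed call, are therefore also given without both. The labels do not tell whether replicates came from separate cultures. The p-values therefore reflect only how much these arrays vary, and that variation may be technical.

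Of the 16 probes, 14 passed the filter of detection on at least 3 of 30 arrays, and 9 of the 10 genes could be tested. Cnn1, which encodes the actin-binding calponin, was detected on 0 of 30 arrays, at 4.29 to 5.58. A Smtn probe detected on 1 array was also left out. A gene was counted through its probe with the highest mean. Each change below is a log2 difference with its standard error (SE) from limma, with 3 arrays in each group and 9 untreated OKMS6 arrays where the 3 times are pooled, and with p-values adjusted over 15635 probes, and counts use an adjusted p under 0.05.

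**Figure D1:**
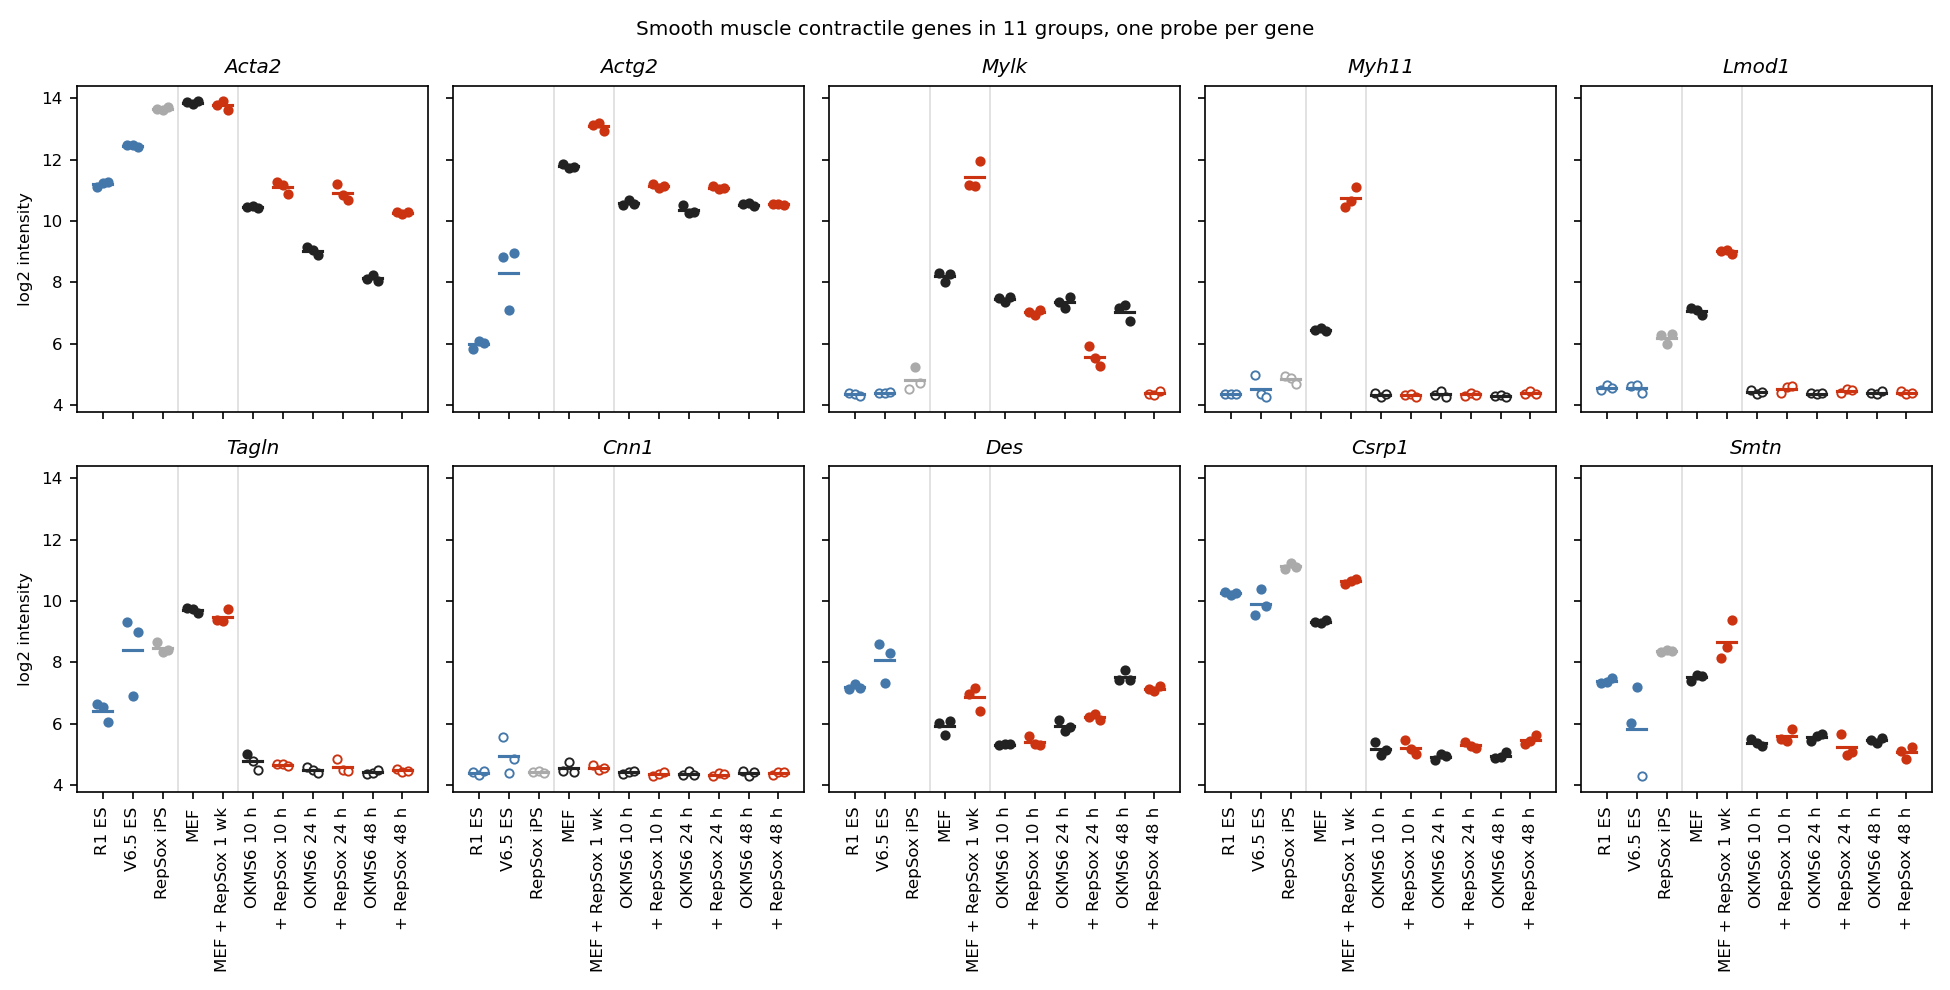
Log2 intensity of the counted probe of each contractile gene on every array, with arrays as points, group means as bars, open points where the probe was not detected, untreated cells in black, RepSox-treated cells in red, ES cells in blue and the iPS line in grey. The iPS arrays were normalised apart on another platform and are left out where that platform has no such probe (Actg2, Des). Myh11 and Lmod1 lay at background in ES and OKMS6 cells and high in MEF with RepSox, Acta2 fell with time in untreated OKMS6 cells, and Mylk reached background in OKMS6 cells after 48 h of RepSox.

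The first question was how MEF given RepSox for 1 week differed in these genes from untreated MEF. The labels give untreated MEF no time and do not say which medium each culture had. RepSox, time in culture and medium therefore cannot be told apart in this comparison. After 1 week the myosin heavy chain gene Myh11, the kinase gene Mylk and the actin nucleator gene Lmod1 were far higher, and Actg2, Csrp1 and Des were higher by less. In all, 6 of the 9 tested genes rose and 0 fell, where 13.8% of all probes were called, 7.03% as higher and 6.77% as lower. The median change over all 10 genes was 1.22, beside -0.01 over all 25697 probes. Without the dim V6.5 arrays 7 rose, Smtn being the addition. Calls over all probes in either direction then went from 2158 to 4105. In RNA from whole cultures, a change in the number of cells of a type and a change in RNA per cell cannot be told apart.

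Myh11 stood at 6.43, 6.49 and 6.41 in untreated MEF and at 10.46, 10.65 and 11.11 after RepSox. The groups were far apart, each with 3 detected arrays, and the rise was 4.30 ± 0.15 (adjusted p = 8.5e-17), 19.7-fold. This heavy chain is a usual marker of mature smooth muscle. Its level in untreated MEF was a low but detected one.

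Mylk was at 8.31, 8.01 and 8.28 in untreated MEF and at 11.16, 11.14 and 11.95 with RepSox. All treated arrays were above all untreated ones, with replicate 3 the highest, and the rise was 3.22 ± 0.18 (adjusted p = 7.9e-13), 9.34-fold. Its second probe rose by 2.97 ± 0.15 (adjusted p = 1.6e-13). At that probe, too, every treated array was above every untreated one.

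Lmod1, whose product leiomodin starts new actin filaments in smooth muscle, was at 7.17, 7.09 and 6.94 without and at 9.03, 9.06 and 8.92 with RepSox. Arrays within a group lay close together, and the rise was 1.94 ± 0.10 (adjusted p = 1.2e-13), 3.83-fold. Actg2, the enteric gamma actin, was already bright at 11.87, 11.74 and 11.77 and reached 13.13, 13.20 and 12.92. The groups did not overlap, with a rise of 1.29 ± 0.27 (adjusted p = 9.8e-04).

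Acta2, the vascular alpha actin and myofibroblast marker, gave a divided result. Its counted probe was the brightest of all, at 13.87, 13.81 and 13.91 in untreated MEF and 13.80, 13.92 and 13.61 with RepSox, so the groups overlapped (change -0.09 ± 0.12, adjusted p = 0.89). The other 3 Acta2 probes were at 0.51 ± 0.19, 0.60 ± 0.58 and 0.66 ± 0.53, each with all treated arrays above all untreated ones, and none passed (adjusted p = 0.090, 0.72 and 0.61). Without the dim V6.5 arrays these 3 probes were called as higher (adjusted p = 0.0078, 0.0020 and 5.1e-04) and the brightest probe was not (adjusted p = 0.69). Actin genes are near-identical over much of their length, and whether a probe also reads another actin was not tested.

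Tagln, which encodes the actin-bundling transgelin, was at 9.79, 9.76 and 9.61 in MEF and at 9.38, 9.33 and 9.75 with RepSox. These ranges overlapped, and the change of -0.23 ± 0.34 did not pass (adjusted p = 0.91). Smtn, named for smoothelin of contractile filaments, went from 7.38, 7.60 and 7.56 to 8.13, 8.51 and 9.37. The groups were apart but the treated arrays were scattered, and the change of 1.16 ± 0.41 missed the threshold (adjusted p = 0.063), while the second Smtn probe rose by 0.86 ± 0.27 (adjusted p = 0.030). Without the dim V6.5 arrays the counted probe was called too (adjusted p = 6.6e-05).

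Csrp1 rose by 1.33 ± 0.16 (adjusted p = 6.5e-07), from 9.31, 9.27 and 9.40 to 10.57, 10.67 and 10.73. Des rose by 0.93 ± 0.22 (adjusted p = 0.0037), from 6.02, 5.65 and 6.09 to 6.98, 7.15 and 6.43. Neither pair of groups overlapped, although for desmin the lowest treated array lay close to the highest untreated one.

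Other genes of the contractile apparatus and its regulators were followed from lists chosen with earlier results of these data known. Of 36 further contractile and actin-binding genes on the platform, 30 were tested in MEF, and 10 rose and 1 fell (median change 0.22 over the 36). Among those that rose were Pdlim3, a LIM protein of actin anchor points (3.23 ± 0.24), Ppp1r14a, which inhibits the phosphatase that undoes the work of Mylk (1.85 ± 0.27), and Itga7, a laminin receptor subunit of muscle (1.70 ± 0.18). Among 4 other actin genes, the cardiac actin gene Actc1 was at least 2.00-fold higher, Acta1 of skeletal muscle rose by 0.43 ± 0.14 and Actg1 fell by 0.33 ± 0.09, leaving Actb at -0.06 ± 0.15. Of 17 tested regulators 6 rose and 1 fell, with the Notch target Hey1 at 1.93 ± 0.12, Prrx1 at 1.13 ± 0.20 and Tbx18 at 0.92 ± 0.10 as rises and Klf2 at -1.67 ± 0.24 as the fall.

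Of 10 tested TGF-beta target genes, 6 fell and 1 rose in MEF (median change -0.90 over 12 on the platform). Skil, a feedback inhibitor of SMAD proteins, fell by 3.22 ± 0.23, Col1a2 of type I collagen fell by 2.83 ± 0.22, the protease inhibitor gene Timp1 fell by 1.87 ± 0.13 and Tgfbi fell by 1.38 ± 0.13. Markers of other cell types moved with the contractile genes too. Of 7 adipocyte markers, 5 were tested and 5 rose, with the summed signal of the list at 395 to 442 without and 9311 to 13953 with RepSox, and Fabp4 and Cd36 detected on no MEF array. Adipoq, Cebpa and Plin1 passed the filter only through treated MEF arrays, so their direction in this count was set by the filter. Of 8 pericyte markers 6 were tested, of which Mcam (1.65 ± 0.21) and Notch3 (1.00 ± 0.31) rose and Rgs5 (-1.06 ± 0.10) and Pdgfrb (-0.38 ± 0.10) fell, and the summed signal was 602 to 615 without and 921 to 1499 with RepSox. Of 21 skeletal and cardiac muscle markers 13 were tested, 2 rose and 1 fell, with summed signals of 632 to 666 and 708 to 826. On each array 3 to 6 of the 21 were detected without and 8 to 9 with RepSox. Myh8, Tnnt3 and Tnni1 were detected on treated MEF arrays but on no untreated one. Myod1, Myf5, Myf6, Myh6, Myh7, Ckm, Ttn and Nkx2-5 were detected on no array of either MEF group. Of 5 tested endothelial markers 1 rose and 1 fell, of 4 myoepithelial markers 0 rose and 1 fell, and of 14 fibroblast markers 4 rose and 3 fell. Fibroblast markers summed to 21156 to 22829 without and 18265 to 26225 with RepSox. The part of these cell types in the rise of the contractile genes was not tested.

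**Figure D2:**
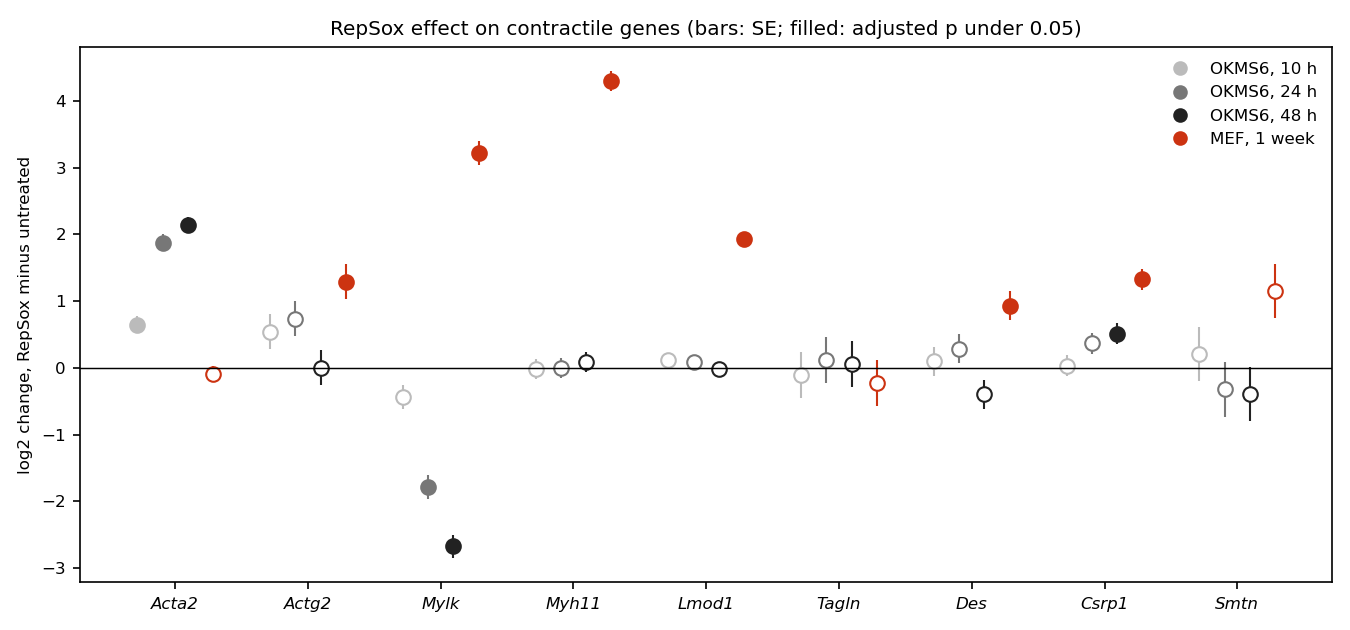
Log2 change with RepSox for the counted probe of each of the 9 tested contractile genes, in OKMS6 cells at 10, 24 and 48 h (light grey to black) and in MEF after 1 week (red), with SE as bars and filled points for an adjusted p under 0.05. In MEF 6 genes lay above 0 as filled points; in OKMS6 cells Acta2 rose at all 3 times and Mylk fell at 24 and 48 h.

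In OKMS6 cells the same compound moved few of these genes, and the pair that moved most went in opposite directions. Acta2 rose at 10, 24 and 48 h, and Mylk fell at 24 and 48 h. The called genes were 1 of 9 at 10 h, where 2.9% of all probes were called, 1.87% as higher and 1.03% as lower. They were 2 of 9 at 24 h, beside 7.76% of all probes, 4.73% higher and 3.04% lower. They were 3 of 9 at 48 h, Csrp1 being the third, beside 13.9% of all probes, 6.06% higher and 7.85% lower. Median changes over the 10 genes were 0.07, 0.11 and -0.002, beside -0.002, -0.001 and 0.004 over all probes. Without the dim V6.5 arrays the counts were 2, 4 and 4, and without both 48 h arrays numbered 3 the last was 2. Calls over all probes moved too, so these counts are not to be set beside the shares above. At 10, 24 and 48 h they were 453, 1214 and 2175 with the dim arrays and 1723, 3478 and 4822 without them. At 48 h they were 1266 without both arrays numbered 3.

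Acta2 fell with time when no RepSox was given. Untreated arrays were at 10.46, 10.51 and 10.41 at 10 h, at 9.16, 9.04 and 8.90 at 24 h, and at 8.10, 8.24 and 8.06 at 48 h. The 3 times did not overlap, with steps of -1.42 ± 0.12 and -0.90 ± 0.12 and a difference between times by the moderated F test (adjusted p = 9.1e-12). With RepSox the arrays were at 11.27, 11.19 and 10.87, at 11.21, 10.84 and 10.68, and at 10.30, 10.23 and 10.29. The treated means were thus also lower at each later time (11.11, 10.91 and 10.27), a fall that was not tested. All treated arrays at 48 h lay below all untreated ones at 10 h.

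At each time all treated arrays lay above all untreated ones. The rise of Acta2 was 0.65 ± 0.12 at 10 h (adjusted p = 0.0025), 1.88 ± 0.12 at 24 h (adjusted p = 8.8e-11) and 2.14 ± 0.12 at 48 h (adjusted p = 3.1e-12), 4.40-fold at the last. The effect itself differed between times (moderated F test, adjusted p = 4.0e-06), with the larger step of 1.23 ± 0.17 between 10 and 24 h. Without both arrays numbered 3 the rise at 48 h was 2.09 ± 0.16 (adjusted p = 2.4e-09). The call at 10 h was lost when arrays were scaled by their medians (0.50 ± 0.21, adjusted p = 0.42).

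The other Acta2 probes were dimmer and gave changes in the same direction, 0.28 to 0.51 at 10 h, 0.91 to 1.74 at 24 h, and 1.20 to 1.82 at 48 h. One of these 3 was called at 24 and 48 h (adjusted p = 8.7e-07 and 2.1e-07). All 3 were called at both times without the dim V6.5 arrays, with the highest adjusted p at 2.0e-05.

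Mylk in untreated OKMS6 cells was at 7.50, 7.36 and 7.51 at 10 h, 7.37, 7.16 and 7.52 at 24 h, and 7.14, 7.24 and 6.74 at 48 h (adjusted p = 0.22 between times, and 0.035 for its second probe). RepSox-treated arrays were at 7.03, 6.95 and 7.08, at 5.90, 5.52 and 5.26, and at 4.36, 4.31 and 4.44. The treated cells thus passed from a detected level at 10 h to background at 48 h, where 0 of 3 arrays detected the gene.

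The change of Mylk was -0.44 ± 0.18 at 10 h, which did not pass (adjusted p = 0.26), although the groups did not overlap. It was -1.78 ± 0.18 at 24 h (adjusted p = 1.4e-07), and at 48 h Mylk was at least 4.79-fold lower (adjusted p = 4.1e-11). The second probe was at -0.47 ± 0.15 at 10 h, without overlap (adjusted p = 0.099, and 0.032 without the dim V6.5 arrays). That probe fell by 1.69 ± 0.15 at 24 h and was at least 3.54-fold lower at 48 h (adjusted p = 8.9e-11). The effect differed between times (moderated F test, adjusted p = 5.4e-06), and 2 of 9 genes, Acta2 and Mylk, did so, beside 6.88% of all probes. Without the dim V6.5 arrays 4 genes did, and calls over all probes went from 1075 to 3721. Without both arrays numbered 3 the fitted change at 48 h was -2.86 ± 0.21 (adjusted p = 2.4e-09).

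**Figure D3:**
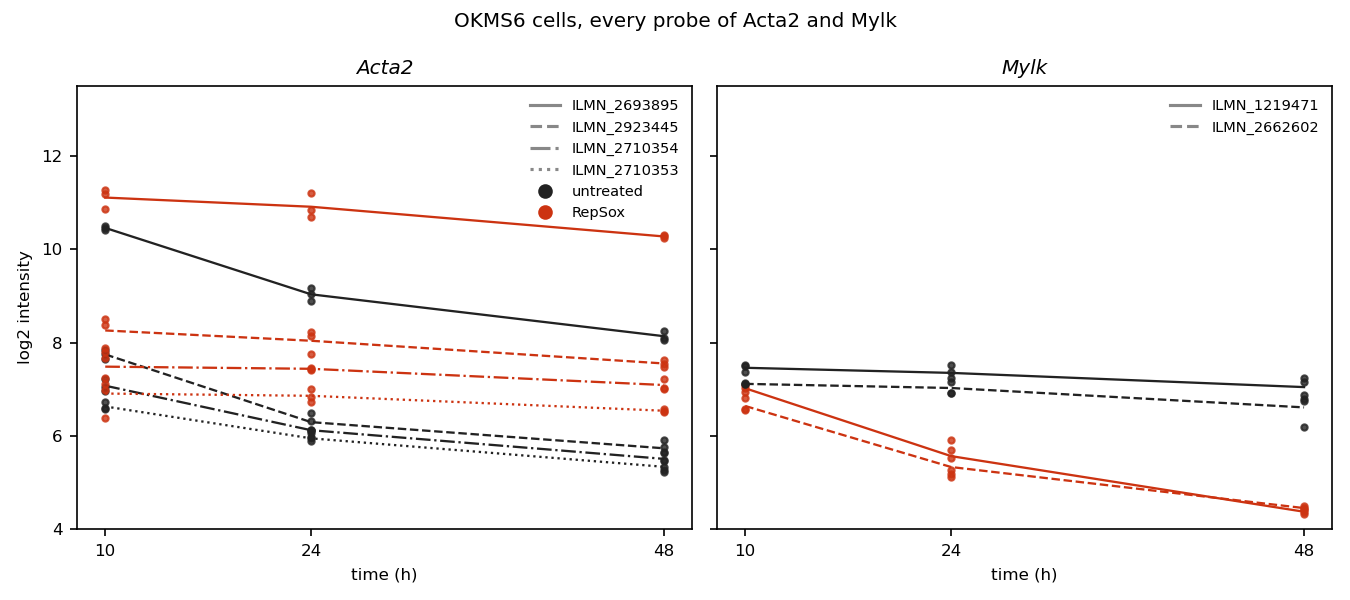
Log2 intensity against time in OKMS6 cells for all 4 Acta2 probes and both Mylk probes, with arrays as points and group means joined by lines, untreated in black and RepSox-treated in red. At each Acta2 probe the untreated mean was lower at each later time and the treated mean lay above it, and at each Mylk probe the treated mean was at background at 48 h.

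Actg2 was bright and steady in untreated OKMS6 cells, at 10.26 to 10.69 over 9 arrays with a median of 10.53. With RepSox it was at 11.19, 11.07 and 11.14 at 10 h and at 11.16, 11.04 and 11.07 at 24 h, above every untreated array, and at 10.55, 10.55 and 10.52 at 48 h, among them. Its changes of 0.54 ± 0.27 and 0.74 ± 0.27 did not pass (adjusted p = 0.45 and 0.10), and that at 48 h was 0.00 ± 0.27. Without the dim V6.5 arrays the first 2 were called (adjusted p = 2.2e-04 and 1.3e-06).

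Csrp1 was near background in OKMS6 cells, at 4.82 to 5.63 over 18 arrays. At 48 h it was at 4.87, 4.91 and 5.08 without and 5.34, 5.44 and 5.63 with RepSox, groups that did not overlap, and rose by 0.51 ± 0.16 (adjusted p = 0.029). That call was lost without untreated replicate 1 or 2 or treated replicate 2 or 3 (adjusted p = 0.068 to 0.14), without both arrays numbered 3 (adjusted p = 0.15), with a larger offset (adjusted p = 0.17) and with median scaling (adjusted p = 0.67). Without the dim V6.5 arrays it was kept (adjusted p = 0.0010). Csrp1 was then also called at 24 h (0.368 ± 0.115, adjusted p = 0.022), where it otherwise did not pass (adjusted p = 0.20).

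Des, the intermediate filament gene, rose with time in untreated OKMS6 cells from 5.29, 5.32 and 5.32 at 10 h to 6.12, 5.77 and 5.90 at 24 h and 7.43, 7.74 and 7.44 at 48 h (moderated F test, adjusted p = 2.2e-07). The times did not overlap, and Des and Acta2 were the 2 of 9 genes that differed between times, where 18.3% of all probes did; the count was also 2 without both 48 h arrays numbered 3. With RepSox at 48 h Des was at 7.14, 7.06 and 7.23, below all untreated arrays, and the change of -0.39 ± 0.22 did not pass (adjusted p = 0.31, 0.042 without the dim V6.5 arrays and 0.43 without both arrays numbered 3).

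The remaining genes gave little signal in this line. Myh11 and Lmod1 were detected on 0 of 18 OKMS6 arrays, at 4.26 to 4.45 and 4.34 to 4.62, and Tagln on 1 of 18, at 4.34 to 5.01. Smtn was at 4.85 to 5.83, and its changes with RepSox lay between -0.39 and 0.21 with none called.

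Of the 30 further contractile and actin-binding genes tested in OKMS6 cells, 1 rose and 2 fell at 10 h, 3 rose and 5 fell at 24 h, and 1 rose and 10 fell at 48 h (median change -0.14 at 48 h). Without both 48 h arrays numbered 3, 0 rose and 7 fell at 48 h. Of the 36 on the platform, 12 or 13 were detected on no array of a given OKMS6 group. Itga7 fell by 1.65 ± 0.18 at 10 h, fell by 2.12 ± 0.18 at 24 h and was at least 5.85-fold lower at 48 h; in MEF it had risen. The integrin gene Itga1 fell by 1.14 ± 0.13 at 10 h and was at least 2.59-fold lower at 24 h. Tpm2, a tropomyosin, fell by 1.05 ± 0.19 and the LIM protein gene Pdlim7 fell by 0.96 ± 0.14 at 48 h, and Tpm1 rose by 0.53 ± 0.11 at 10 h. Of the 4 other actin genes 0 were called at any of the 3 times, with Actb at -0.39 ± 0.15 at 48 h. Actg1, Acta1 and Actc1 were detected on no OKMS6 array, so a fall in them could not have been seen.

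Of 17 tested regulators 2 rose at 10 h, 3 at 24 h and 2 at 48 h, and 0 fell at any of these times. Those at 48 h were Hey1 (0.63) and Klf2 (1.02), both also called without both arrays numbered 3. In MEF Hey1 had risen and Klf2 had fallen. The gene of the cofactor myocardin, Myocd, was detected in OKMS6 cells and was at 0.92 ± 0.35 at 10 h and 0.77 ± 0.35 at 24 h, changes that did not pass (adjusted p = 0.22 and 0.23). Of 10 tested TGF-beta targets 1 fell at 10 h, 2 fell and 1 rose at 24 h, and 4 fell at 48 h, with Skil at -0.98 ± 0.23 at the last. Without both arrays numbered 3, 3 targets fell at 48 h, and Skil was at -0.80 ± 0.28 and not called (adjusted p = 0.097). Of 12 such targets on the platform, 3 to 7 were detected on no array of a given OKMS6 group. The pericyte marker Mcam rose at 10, 24 and 48 h (1.95 ± 0.21, 1.51 ± 0.21 and 0.97 ± 0.21), as the only called one of 6 pericyte markers. Of 5 endothelial markers 1 fell at 10 h, 1 at 24 h and 2 at 48 h, with Pecam1 at -3.76 ± 0.33 at the last. Of 13 pluripotency markers 2 rose at 10 h, 4 rose and 1 fell at 24 h, and 4 rose and 1 fell at 48 h, with Nanog at 2.85 ± 0.13. Of 4 myoepithelial markers 1 rose and 1 fell at 10 h, and 1 rose at 24 and at 48 h. Of 13 skeletal and cardiac markers 1 fell at 48 h, and 0 were called at 10 and 24 h. The 48 h counts of the pericyte, endothelial, pluripotency, myoepithelial, skeletal and cardiac, and fibroblast lists were the same without both arrays numbered 3.

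Some cultures held feeder fibroblasts, whose markers were followed beside these genes. The summed signal of 15 fibroblast markers in OKMS6 cells was 1809 to 2015 untreated and 2046 to 2939 treated at 10 h, 1496 to 1571 and 1994 to 2205 at 24 h, and 1248 to 1360 and 1408 to 1417 at 48 h. At each time the sums of the treated arrays were above those of the untreated ones, and the untreated sums were lower at later times. In untreated MEF the sum was 21156 to 22829. Of 14 tested fibroblast markers 0 were called at 10 and 24 h and 1 fell at 48 h, Thy1 (-1.27 ± 0.18). Col1a2, Col3a1, Postn, Lum, Twist2 and Fap were detected on no OKMS6 array, and Postn on no MEF array either. Adipocyte markers were detected on 0 OKMS6 arrays. The part of feeder cells in the Acta2 and Mylk changes was not tested.

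The difference between the RepSox effects in MEF and in OKMS6 cells at 48 h was tested as such, although the times of treatment differ and are part of it. It passed for 7 of 9 genes, 6 of them higher in MEF and 1 lower, beside 14.6% of all probes, 7.98% higher and 6.63% lower. Of these 7, Myh11 and Lmod1 passed the filter only through MEF arrays and were at background in both OKMS6 groups, so for them the test holds only the rise in MEF. For Mylk, which rose in the one and fell in the other, the fitted effects differed by 5.90 ± 0.25 (adjusted p = 1.1e-14), a value that depends on the background level because treated OKMS6 arrays did not detect it. The difference was 1.33 ± 0.31 for Des, 1.29 ± 0.38 for Actg2 and 0.81 ± 0.22 for Csrp1. For Acta2 it was -2.22 ± 0.17 (adjusted p = 6.9e-10) at the counted probe, -1.31 ± 0.28 at the next, which also passed, and -0.98 ± 0.81 and -0.54 ± 0.75 at the other 2, which did not. Without the dim V6.5 arrays 8 genes passed, Smtn being the addition (1.55 ± 0.29, adjusted p = 1.3e-04), and so did the last 2 Acta2 probes (adjusted p = 4.4e-04 and 0.036). Calls over all probes then went from 2284 to 4892. Without both 48 h arrays numbered 3, 6 genes passed, and Actg2 (1.31 ± 0.44, adjusted p = 0.063) did not. With median scaling Csrp1 did not pass (adjusted p = 0.54).

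Before any RepSox, the cell types themselves held these genes at very unlike levels. MEF were above R1 cells in 6 of 9 genes and below them in 2, beside 55.5% of all probes called, 27.2% higher and 28.3% lower, with a median over the 10 genes of 2.30 against 0.01 over all probes. Actg2 was 5.82 ± 0.27 higher in MEF, at 5.82, 6.09 and 6.03 in R1 cells. Mylk, Lmod1 and Myh11 were detected on 0 of 6 ES arrays. Lmod1 and Myh11 passed the filter only through MEF arrays, so their direction in this count was set by the filter. Against R1 cells, MEF had at least 11.4-fold more Mylk, at least 5.20-fold more Lmod1 and at least 3.37-fold more Myh11. Tagln was higher by 3.31 ± 0.34, from 6.64, 6.53 and 6.06 in R1.

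Acta2 was detected well above background in R1 cells, at 11.11, 11.22 and 11.26 by its counted probe, and was 2.66 ± 0.12 higher in MEF. The same difference read 4.31 ± 0.19, 5.41 ± 0.53 and 5.43 ± 0.58 at the other probes, so its size depended on the probe and its direction did not. Csrp1 and Des were lower in MEF than in R1 cells, with differences of -0.93 ± 0.16 and -1.26 ± 0.22. For Csrp1 the R1 arrays were at 10.29, 10.21 and 10.25, and for Des at 7.12, 7.28 and 7.15, above all untreated MEF arrays. Smtn, at 7.33, 7.36 and 7.50 in R1, overlapped with MEF (0.12 ± 0.41).

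Untreated OKMS6 cells, taken over the 3 times, were below MEF in 8 of 9 genes and above in 0, beside 57.9% of all probes called, 31.9% higher and 26% lower, with a median over the 10 genes of -2.09. Acta2 was at -4.65 ± 0.10 at the counted probe and between -6.82 and -6.57 at the others, and Csrp1 was at -4.31 ± 0.13. Tagln was detected on 1 of 9 untreated OKMS6 arrays, so its fitted difference of -5.16 ± 0.28 depends on the background level. Lmod1 was at least 4.79-fold and Myh11 at least 3.11-fold lower. Both passed the filter only through MEF arrays, so their direction in the count of 8 was set by the filter. Actg2 was at -1.30 ± 0.22, a call lost with median scaling (adjusted p = 0.063), and Mylk at -0.91 ± 0.14, a direction that turned to 0.06 ± 0.13 with that scaling. Des, at 0.34 ± 0.18, was not called (adjusted p = 0.11). It was called as higher in OKMS6 cells without the dim V6.5 arrays (adjusted p = 0.013), which made 9 of 9, and with median scaling (0.85 ± 0.17, adjusted p = 1.5e-04). Without both 48 h arrays numbered 3 the count was 8.

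Against R1 cells, untreated OKMS6 cells had more of 2 genes and less of 5, beside 47.6% of all probes, 25.3% higher and 22.3% lower. Actg2 was 4.52 ± 0.22 higher and Mylk at least 6.04-fold higher, both also detected in MEF. Csrp1 was at -5.23 ± 0.13, Acta2 at -1.99 ± 0.10, Smtn at -1.93 ± 0.33, Tagln at -1.86 ± 0.28 and Des at -0.92 ± 0.18, with Tagln again detected on 1 of 9 OKMS6 arrays. For Des this mean over times hides an order that turned: the untreated arrays at 10 and 24 h were below all R1 arrays, and those at 48 h, at 7.43 to 7.74, were above all of them. The count was 8 without the dim V6.5 arrays, Lmod1 being the addition although it was detected in neither group, and 7 without both 48 h arrays numbered 3. In the order of group means, Actg2 put all 6 OKMS6 groups between MEF and ES cells, and the counted Acta2 probe put V6.5 and R1 between MEF and OKMS6 cells, with R1 overlapping OKMS6 cells given RepSox for 10 or 24 h. At another Acta2 probe the V6.5 mean, with 2 of 3 arrays detected, was below 4 OKMS6 groups.

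The 2 ES lines differed in 5 of 9 genes, with Smtn higher and Acta2, Actg2, Tagln and Des lower in R1 than in V6.5 cells, beside 57.6% of all probes called, 31.7% higher and 25.9% lower. This comparison rests on the dim V6.5 arrays. With V6.5 replicate 2 alone, 2 genes were called, Acta2 and Actg2, and the lone array was assumed to vary like the other groups. V6.5 arrays were at 12.46, 12.47 and 12.41 for the counted Acta2 probe and at 8.81, 7.10 and 8.96 for Actg2, above all R1 arrays in both genes, although the Acta2 call was lost with median scaling (adjusted p = 0.26). Tagln was at 9.32, 6.90 and 8.97, with the 2 dim arrays far above the bright one. Des in R1 against V6.5 was at -0.90 ± 0.22, a direction that turned under median scaling (0.87 ± 0.21).

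The iPS line was measured on its own platform and normalised apart, so its platform and its cell type cannot be told apart and no test was made. On that scale Acta2 was bright, at 13.64, 13.63 and 13.72 by the probe counted on the larger platform, and Csrp1 was at 11.04, 11.25 and 11.11. Actg2 was at 8.78, 9.33 and 8.91 by a probe of that platform alone, Tagln at 8.65, 8.35 and 8.40, and Smtn at 8.35, 8.41 and 8.38. Lmod1 was detected on all 3 arrays, at 6.28, 6.0 and 6.30, unlike in the ES groups, while Myh11 and Cnn1 were detected on none and the counted Mylk probe on 1 of 3.

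How the members varied together was described by the correlation of their means over 10 groups, which share normalisation and, for OKMS6 cells, a line. Myh11 and Lmod1, both at background outside MEF, had the highest value (r = 0.974). Tagln went with Csrp1 (r = 0.896) and Acta2 (r = 0.895), and Actg2 with Mylk (r = 0.762). The actins Acta2 and Actg2 had r = 0.219, Acta2 and Mylk r = 0.349, and Actg2 and Des r = -0.435. Among 10613 other genes, those most like Acta2 by the same measure were Id3 (r = 0.951), Pard6g (0.948), Gata2 (0.947), Tmem50b (0.940) and Cask (0.935). Most like Mylk were Vegfd (0.976), Tollip (0.961), Tnfrsf1a (0.948), Ctxn1 (0.945) and Fitm2 (0.945). Most like Myh11, whose values rest on 1 high group, were Ccl9 (0.999), Npy6r (0.998), Htr1b (0.998), Eya1 (0.998) and Pamr1 (0.998).

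Promoter sequence was read for every listed gene with a window, whether or not it had moved. Windows ran from 250 bases before to 50 bases after the transcription start (RefSeq, build GRCm38.p6). The table held windows for 7 of the 10 genes, 8 in all, and none for Actg2, Myh11 and Tagln. Shown are Acta2 and Mylk, which went in opposite directions in OKMS6 cells, and Lmod1, which rose with Mylk in MEF. Capitals mark matches to the CArG box, the binding sequence of serum response factor, with up to 1 inner base that is neither A nor T, and to the MCAT element CATTCC or its reverse complement GGAATG, bound by TEAD factors. The window of Acta2 is chr19:34255324-34255623 on the minus strand, that of Mylk chr16:34784700-34784999 on the plus strand and that of Lmod1 chr1:135324563-135324862 on the plus strand, each written 5′ to 3′ along the gene.
Acta2: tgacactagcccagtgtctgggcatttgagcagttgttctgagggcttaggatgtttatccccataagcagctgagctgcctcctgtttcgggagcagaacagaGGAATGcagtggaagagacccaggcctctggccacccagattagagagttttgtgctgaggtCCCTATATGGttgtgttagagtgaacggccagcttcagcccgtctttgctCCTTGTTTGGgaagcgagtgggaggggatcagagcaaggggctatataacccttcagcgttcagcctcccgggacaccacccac
Mylk: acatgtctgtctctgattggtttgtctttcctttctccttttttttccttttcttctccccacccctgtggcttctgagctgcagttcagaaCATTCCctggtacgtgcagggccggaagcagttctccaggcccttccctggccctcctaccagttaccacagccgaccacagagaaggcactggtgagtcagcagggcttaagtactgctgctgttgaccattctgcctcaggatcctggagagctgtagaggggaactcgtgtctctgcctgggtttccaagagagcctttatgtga
Lmod1: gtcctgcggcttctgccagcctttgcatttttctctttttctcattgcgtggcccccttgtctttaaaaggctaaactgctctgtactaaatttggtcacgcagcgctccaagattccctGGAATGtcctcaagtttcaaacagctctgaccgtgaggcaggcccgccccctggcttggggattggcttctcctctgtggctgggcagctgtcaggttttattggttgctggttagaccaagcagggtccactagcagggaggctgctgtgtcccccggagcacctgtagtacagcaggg

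Of the 8 member windows, 1 held a CArG box by the relaxed rule, that of Acta2, with CCCTATATGG starting at -84 and CCTTGTTTGG at -34 from the start. Such a match was found in 9.98% of 32851 windows of the same length. With no inner mismatch allowed, 0 of 8 member windows and 1.63% of all windows held one. The MCAT element was in 4 of the 8, at -146 in Acta2, -158 in Mylk, -130 in Lmod1 and -222 in Smtn, and in 14.7% of all windows. Both strands were searched, and the marked matches do not overlap. The 8-base SMAD element GTCTAGAC was in 0 of the 8 and in 0.213% of all windows.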

How the data were processed

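RNA of 33 mouse cell samples was measured on Illumina bead arrays, 30 on a larger and 3 on a smaller platform. Per the labels' protocols, RNA was taken with Trizol and labelled with an Ambion kit. The authors deposited, per the file headers, scanner tables with an intensity on a linear scale and a detection p-value for each probe and array. The submitters' processing notes name BeadStudio without a version. A series matrix of linear intensity values was deposited too, with a column median of 10.7 on the larger platform, whose method stays unknown and which served as an alternative. In it, 31 columns matched their own scanner column and 2 did not (rho of 0.931).

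Scanner values were corrected, quantile normalised and log2 transformed with neqc of limma 3.58.1 in R 4.3.3 (offset 16, background from the detection p-values), each platform apart. Probes detected at p under 0.05 on at least 3 of 30 arrays were kept, and a model of 10 group means was fitted to 15635 probes (20 residual and 3.33 prior degrees of freedom) with Benjamini-Hochberg adjustment, two-sided. A group that was detected on no array was given the lowest detected signal of each array as its bound. The number of arrays, 3 a group, limits the precision. Groups and replicate numbers came from the titles. Names came from the platform annotation. The members, the further lists and the tests were chosen with earlier results of these data known, and up to 4 genes of a list were named by their adjusted p in each comparison. The model was tested on simulated data. Of true log2 changes of 0.5, 39.4% were called in OKMS6 cells at 48 h and 19.7% in fibroblasts. Of changes of 1, 62.7% were called in either, and of changes of 2, 92.5% and 98.5%. Alternatives were background correction, scaling, filter, offset, source table, arrays in the fit, array weights, replicate block, probe rule and each replicate left out.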

Additional observations from a re-analysis of the deposited data

Results flagged for a closer look

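The RepSox effect in fibroblasts differed from that in OKMS6 cells at 48 h, when the difference itself was tested, for 7 contractile genes. The log2 differences, fibroblasts minus OKMS6, were 5.90 for Mylk, 4.21 for Myh11, 1.94 for Lmod1, 1.33 for Des, 1.29 for Actg2, 0.81 for Csrp1 and -2.22 for Acta2. Myh11 and Lmod1 were at background in OKMS6 cells with and without RepSox, so their values hold only the rise in fibroblasts, and the value of Mylk rests in part on the background level. In 3 of 3 treated fibroblast arrays Mylk was above every untreated one, and in 3 of 3 treated OKMS6 arrays it was below every untreated one.

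The RepSox effect in OKMS6 cells differed between 10, 24 and 48 h for Acta2 (adjusted p = 4.0e-06) and Mylk (adjusted p = 5.4e-06) by limma's moderated F test. The change was 0.65 at 10 h and 2.14 at 48 h for Acta2, and -0.44 and, as fitted, -2.67 for Mylk, which was not detected in treated cells at 48 h.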

How the results depend on the processing

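Counts are of members called, of 9. With the series matrix the counts were 0 at 10 h, 1 at 24 h, 0 at 48 h and 0 for the effect between times; by limma at an unadjusted p under 0.05, 0 members passed in those with 0, and 274 of all probes at 48 h, where 0 were called. Without its 48 h columns numbered 3, 1431 probes were called. With median scaling the count at 10 h was 0 (3 at an unadjusted p under 0.05). Without V6.5 replicates 1 and 3 the counts were 2 at 10 h, 4 at 24 h, 4 for the effect compared between times and 2 for R1 against V6.5. With array weights they were 3, 6 and 5 at 10, 24 and 48 h, 6 for untreated OKMS6 cells between times and 6 for the effect compared between times. With only the groups compared in the fit they were 3, 4 and 5 at the 3 times, 1 for R1 against V6.5 and 4 for the effect compared between times. The cause was not tested. Leaving out each replicate in turn gave 1 to 1 at 10 h, 2 to 2 at 24 h, 2 to 3 at 48 h, 6 to 7 in fibroblasts, 2 to 2 between times, 7 to 8 for fibroblasts against OKMS6 cells, 2 to 2 for untreated cells between times, 8 to 8 for MEF against R1 and for OKMS6 cells against MEF, 7 to 7 for OKMS6 cells against R1 and 5 to 6 for R1 against V6.5. Of 2034 single values under alternatives, 1943 kept their direction and side of the threshold, 32 lost and 57 gained a call, and 2 reversed, both with median scaling: Mylk in OKMS6 cells against MEF (0.055) and Des in R1 against V6.5 (0.868). Median scaling moved the median over the 15635 tested probes by -0.18 at 24 h, -0.17 for that effect against 10 h, 0.10 in fibroblasts against OKMS6 cells, -0.47 in MEF against R1, 0.34 in OKMS6 cells against MEF and 0.77 in R1 against V6.5.

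Over all probes, 453, 1214 and 2175 were called at 10, 24 and 48 h and 2158 in fibroblasts. These counts were 1723, 3478, 4822 and 4105 without the dim V6.5 arrays, 3671, 6816, 6377 and 5647 with array weights, and 1421, 2068 and 5443 at the 3 times with only the groups compared. With the series matrix they were 258, 742 and 0 at the 3 times, and with median scaling 1273 in fibroblasts. Without untreated replicate 1, 2 or 3 or treated replicate 3 the count at 10 h was 233 to 269, and without untreated replicate 3 or treated replicate 2 that at 24 h was 769 to 803. For the effect compared between times, 1075 probes were called, and 647 with median scaling, 66 with the series matrix, 3721 without the dim arrays, 7205 with weights and 3761 with only its groups. For fibroblasts against OKMS6 cells the count was 2284, and in the same order of settings, without median scaling, 932, 4892, 6661 and 4784. For untreated OKMS6 cells between times 2867 became 1780, 6815, 9393 and 7954, and for R1 against V6.5 9009 became 3766 without the dim arrays and 201 with only those groups. At 48 h the count was 1266 without both arrays numbered 3, an alternative chosen after seeing the data. Calls higher and lower were 739 and 475 at 24 h, and 297 and 915 with median scaling; in fibroblasts 1099 and 1059, and 811 and 462; at 48 h 948 and 1227, and 473 and 1102; for fibroblasts against OKMS6 cells 1248 and 1036, and 1102 and 477; for MEF against R1 4258 and 4427, and 2872 and 7295; for OKMS6 cells against MEF 4983 and 4063, and 7432 and 2259; for R1 against V6.5 4959 and 4050, and 9519 and 1456.

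The replicate block changed no count of members called (1, 2, 3 and 6 for the 4 RepSox effects). Deviations of same-numbered arrays correlated at -0.31 to 0.32 over the 4 RepSox comparisons. At 48 h the 3 pairs were at 0.22, 0.086 and 0.32 and in fibroblasts at 0.063, 0.14 and 0.22, not all over 0.1 in either, and no label ties same-numbered arrays, so the numbers were not taken to pair them. Slide as a block was not run, since the scanner tables used here give no slide. Signal limits Myh11, Lmod1, Cnn1 and Tagln in OKMS6 cells, where they lie at or near background.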
